A study of Mus musculus with 10 samples.

Results

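Runx1-deleted megakaryocyte-erythroid progenitors (MEP) were set against wild-type MEP from mouse bone marrow, each group being 2 RNA-seq libraries of the 10 in the series. Genes entered the comparison when they reached at least 1 RPKM (reads per kilobase of gene and 1000000 reads) in at least 2 of these 4 libraries, which kept 10152 of 23240 genes. The Runx1-deleted group, labelled Runx1Δ/Δ, came from Runx1fl/fl mice carrying Tg(vav-Cre). The wild-type group, labelled Runx1wt/wt, came from Runx1+/+ mice that carried the same Cre transgene, so the Cre itself was present on both sides. The gate for MEP was the same in both groups: kit+ CD150+ cells without lineage (lin-) or sca markers (sca-) that were also CD16/32-, CD41- and CD105-. The age of the mice is not given. The vav promoter drives Cre in blood cells broadly and from their stem cells on, so the deletion was not confined to MEP. Whether the 2 libraries of a group are from different animals is not given, so the p-values speak for the spread among libraries alone, which may be technical.

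RUNX1 is a DNA-binding transcription factor that works as a heterodimer with CBFB and can activate or repress the genes it binds. MEP are the marrow progenitors from which red cells and platelet-forming megakaryocytes arise. RUNX1 is best known in this branch for its part in megakaryocyte maturation, and inherited loss of 1 human copy causes a familial platelet disorder. GATA1 drives both branches, KLF1 the erythroid one and FLI1 the megakaryocytic one.

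Depth, in units of 1000000 reads, was 37.3 and 42.3 in Runx1-deleted MEP and 36.4 and 45.4 in wild-type MEP, with 75.3% to 80.9% of them in genes. The wild-type replicates stood further apart than the Runx1-deleted ones. On log2(RPKM + 1), the scale of all differences below, the SD of the gene-wise difference between replicates was 0.31 in Runx1-deleted MEP and 0.53 in wild-type MEP, and 0.581% and 7.14% of genes lay more than 2-fold apart. The wild-type library of lane 3 was the one that stood apart. Its Pearson correlations with the Runx1-deleted libraries were 0.94 and 0.92, against 0.97 and 0.96 for the other wild-type library. Both Runx1-deleted libraries and that other wild-type library were run in lane 5, and the part of the lane was not tested. Against the lane 3 library the median difference climbed with gene length through -0.49, -0.09, 0.12, 0.34 and 0.63 in 5 equal parts of the genes, and against the lane 5 library it lay between -0.06 and -0.04 in every part. In the shortest part 44 genes were called higher and 154 lower, and in the longest 114 higher and 29 lower. Wild-type values are therefore named by lane, or given with the lane 3 value before the lane 5 one.

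**Figure D1:**
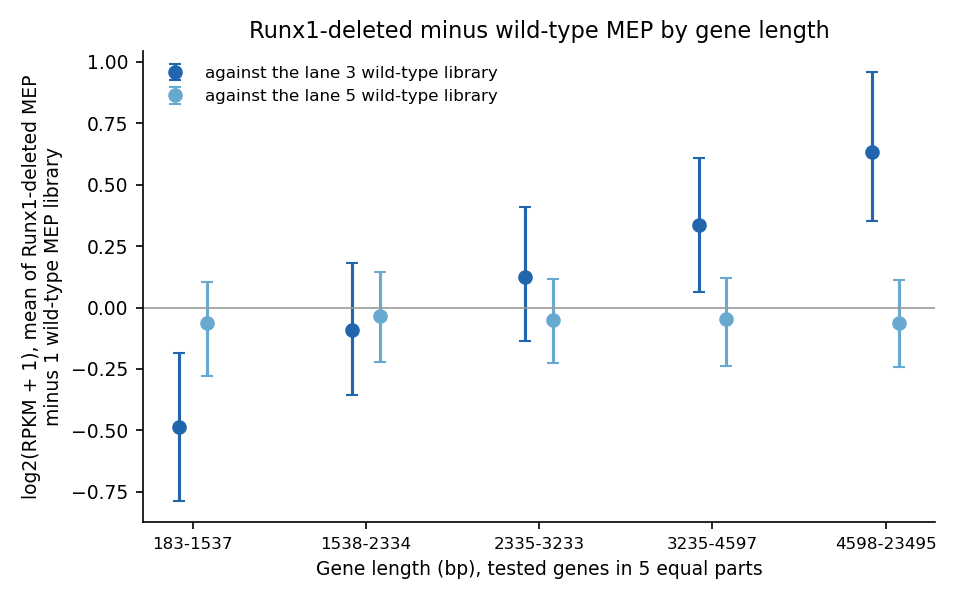
Median difference between the mean of the 2 Runx1-deleted MEP libraries and 1 wild-type MEP library, on log2(RPKM + 1), for the tested genes in 5 equal parts by gene length in bp; bars span the quartiles over genes. Against the lane 3 library the median goes through -0.49 in the shortest and 0.63 in the longest genes, and against the lane 5 library it stays between -0.06 and -0.04.

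The deletion itself could not be read from these values. Runx1 was listed at 41.5 and 36.8 RPKM in Runx1-deleted MEP, against 17.2 (lane 3) and 25.5 (lane 5) RPKM in wild-type MEP, higher in both Runx1-deleted libraries (limma, log2 difference 0.87 ± 0.20, adjusted p = 0.0219). An RPKM over the whole gene counts reads of a transcript that lacks the floxed exon too, so it checks neither the genotype nor the amount of protein, and the call was lost with group weights, in the 4 MEP libraries alone and without either Runx1-deleted library or the lane 3 library (adjusted p = 0.00214 to 0.186 over the alternatives). Cbfb, the partner subunit, had 28.6 and 25.8 RPKM in Runx1-deleted MEP, against 50.5 (lane 3) and 56.0 (lane 5) RPKM in wild-type MEP, lower in both Runx1-deleted libraries (log2 difference -0.94 ± 0.17, adjusted p = 0.00551; 0.000574 to 0.116 over the alternatives, with the call lost with group weights, in the 4 MEP libraries alone and without the second Runx1-deleted library). Runx3 had 45.3 and 45.0 RPKM in Runx1-deleted MEP and 38.9 and 48.8 RPKM in wild-type MEP (adjusted p = 0.885). Runx2 was much lower, with 4.05 and 4.897 RPKM in Runx1-deleted MEP and 3.11 and 5.74 RPKM in wild-type MEP (adjusted p = 0.911), and the groups overlapped in both paralogs. Among 21 tested RUNX genes and partners, Runx1 and Cbfb were the called members, while 7.88% of all tested genes were called in either direction. The 21 included the TLE, NCOR, HDAC and CBFA2T corepressors and p300 and CBP.

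The libraries carried transcripts of CD150 and kit, the markers that the gate selected for. Slamf1, which encodes CD150, had 24.7 and 29.9 RPKM in Runx1-deleted MEP, against 8.93 (lane 3) and 10.1 (lane 5) RPKM in wild-type MEP, higher in both Runx1-deleted libraries (log2 difference 1.43 ± 0.18, adjusted p = 0.000707). Kit had 110.2 and 138 RPKM in Runx1-deleted MEP and 73.2 and 117 RPKM in wild-type MEP and did not pass the test (adjusted p = 0.33). Itga2b, which encodes the CD41 used to exclude cells, was nonetheless abundant at 218 and 203 RPKM in Runx1-deleted MEP and 133 and 163 RPKM in wild-type MEP (adjusted p = 0.142). The summed level of 7 MEP genes (Gata1, Klf1, Epor, Gfi1b, Itga2b, Pf4 and Slamf1) was 875 and 753 RPKM in Runx1-deleted MEP and 1084 and 923 RPKM in wild-type MEP, against group means of 109.8 RPKM in Runx1-deleted GMP and 57.0 RPKM in wild-type GMP, the granulocyte-monocyte progenitors of the same series. The 5 granulocyte genes Mpo, Elane, Ctsg, Prtn3 and Cebpa summed to 31.9 and 30.1 RPKM in Runx1-deleted MEP, 50.5 and 38.0 RPKM in wild-type MEP, and 7735 and 11660 RPKM on average in Runx1-deleted and wild-type GMP. Mast cell and basophil genes (Prss34, Mcpt8, Cpa3 and Fcer1a) summed to 7.52 and 16.0 RPKM in Runx1-deleted MEP and 19.2 and 14.5 RPKM in wild-type MEP. Cd3e and Cd79a of lymphocytes summed to at most 0.362 RPKM in Runx1-deleted MEP and 1.09 RPKM in wild-type MEP, and Alb and Ttr of hepatocytes were at 0 or 0.0108 RPKM. In sorted bulk cells, fewer cells of a type and less RNA per cell cannot be told apart, here or in any result below.

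At an adjusted p under 0.05 (limma over all 10 libraries, Benjamini-Hochberg), 396 genes were higher in Runx1-deleted MEP, which is 3.90% of those tested, and 404 were lower, which is 3.98%, or 7.88% together. Regardless of any test, the groups did not overlap in 21.4% of tested genes that were higher in both Runx1-deleted libraries and in 20.2% that were lower in both. The median difference over all tested genes was 0.04. The wild-type MEP pair varied most of all groups and a single spread shared by all of them understates it, and 1 of them was run in another lane, so 3 further fits stand beside this one. One gave each group its own weight and called 94 higher (0.926%) and 103 lower genes (1.01%), one used the 4 MEP libraries alone and called 150 (1.48%) and 151 (1.49%), and one left out the lane 3 library and called 245 (2.41%) and 355 (3.50%). That last fit keeps 1 wild-type MEP library, which is assumed to vary like the other groups. It sets the lane aside but does not check the wild-type spread. Without the first or the second Runx1-deleted library 426 and 339 genes were called in either direction, and without the lane 5 wild-type library 3391. In all 4 fits together 81 genes were higher (0.798%) and 100 lower (0.985%). A called gene whose own values or difference in MEP are given below, and nowhere with a range of adjusted p over the alternatives, belongs to these 181. Called genes given by name alone can lie outside them. By the deposited test of the authors' table, 180 of the tested genes (1.77%) had an FDR-corrected p under 0.05, of which 123 were among the 800 called here (68.3% of the authors' genes and 15.4% of the 800).

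**Figure D2:**
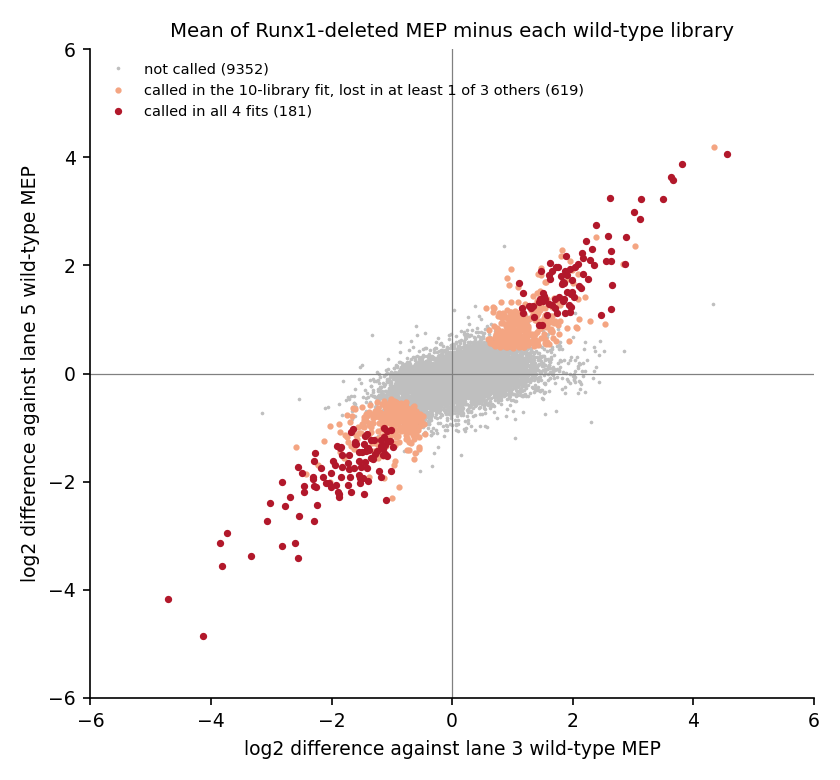
Each point is 1 of 10152 tested genes, by the difference between the mean of the 2 Runx1-deleted MEP libraries and the lane 3 wild-type library (horizontal) and the lane 5 wild-type library (vertical), on log2(RPKM + 1). The 181 genes called in all 4 fits (dark red) lie along the diagonal on both sides, whereas the uncalled genes (grey) spread along the horizontal axis.

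Promoters are shown first for the 3 largest rises and 3 largest falls that have one in the reference, since these genes open the account of single genes. The order is that of the fitted difference over all libraries. The promoters run from 250 bases before to 50 bases after the gene start, on the strand of the gene, and come from RefSeq on GRCm38.p6, a later build than the mm9 of the files. Capitals mark the letters TGTGGT, which are the core of the RUNX motif, on either strand. They also mark the letters AGATAA, which fit the motif of GATA factors, on either strand. The rises were Alox12 at chr11:70255321-70255620 (minus strand), St3gal6 at chr16:58524204-58524503 (minus strand) and Hpn at chr7:31115277-31115576 (minus strand), and the falls Scin at chr12:40134179-40134478 (minus strand), Nkg7 at chr7:43436888-43437187 (plus strand) and Ifitm1 at chr7:140967826-140968125 (plus strand).
Alox12: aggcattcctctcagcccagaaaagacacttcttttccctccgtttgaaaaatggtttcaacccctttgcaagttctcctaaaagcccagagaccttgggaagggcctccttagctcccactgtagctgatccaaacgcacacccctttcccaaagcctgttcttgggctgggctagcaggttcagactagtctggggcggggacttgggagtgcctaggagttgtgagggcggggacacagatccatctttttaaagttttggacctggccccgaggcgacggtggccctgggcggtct
St3gal6: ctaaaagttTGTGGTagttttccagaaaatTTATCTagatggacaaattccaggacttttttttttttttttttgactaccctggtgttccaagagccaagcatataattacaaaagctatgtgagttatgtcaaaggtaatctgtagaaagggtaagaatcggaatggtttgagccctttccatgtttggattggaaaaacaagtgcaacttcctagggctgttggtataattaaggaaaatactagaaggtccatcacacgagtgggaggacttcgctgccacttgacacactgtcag
Hpn: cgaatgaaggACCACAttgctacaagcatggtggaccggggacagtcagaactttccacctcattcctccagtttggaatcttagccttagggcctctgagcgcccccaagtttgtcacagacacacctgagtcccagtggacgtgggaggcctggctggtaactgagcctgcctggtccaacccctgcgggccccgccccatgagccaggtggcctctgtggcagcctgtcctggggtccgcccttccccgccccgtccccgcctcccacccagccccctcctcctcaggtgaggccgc
Scin: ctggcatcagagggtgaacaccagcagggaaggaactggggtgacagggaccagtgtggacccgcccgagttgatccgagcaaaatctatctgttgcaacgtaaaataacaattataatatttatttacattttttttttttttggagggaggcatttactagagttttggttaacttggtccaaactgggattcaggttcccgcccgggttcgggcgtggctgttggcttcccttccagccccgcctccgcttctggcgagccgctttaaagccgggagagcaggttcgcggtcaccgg
Nkg7: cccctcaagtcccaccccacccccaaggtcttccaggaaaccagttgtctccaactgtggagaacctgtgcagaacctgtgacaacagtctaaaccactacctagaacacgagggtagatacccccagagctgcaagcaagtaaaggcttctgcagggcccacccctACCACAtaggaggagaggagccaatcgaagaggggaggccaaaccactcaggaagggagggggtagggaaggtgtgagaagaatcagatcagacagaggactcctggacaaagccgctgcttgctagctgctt
Ifitm1: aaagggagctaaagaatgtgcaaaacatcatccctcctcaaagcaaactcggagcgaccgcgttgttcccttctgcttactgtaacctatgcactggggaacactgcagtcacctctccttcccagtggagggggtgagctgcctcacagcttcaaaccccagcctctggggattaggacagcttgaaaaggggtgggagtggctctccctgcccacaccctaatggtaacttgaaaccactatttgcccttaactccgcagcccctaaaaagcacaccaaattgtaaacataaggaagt

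St3gal6 held the RUNX letters 241 bases and the GATA letters 220 bases before its start, Hpn the RUNX letters 240 bases and Nkg7 the RUNX letters 83 bases before theirs. Neither motif was found in the windows of Alox12, Scin and Ifitm1. A match is a run of letters and not a measured site. Over the genes called in all 4 fits, the RUNX letters stood in a promoter of 16 of 65 higher genes (24.6%) and 14 of 81 lower genes (17.3%), against 14.6% of 8238 tested genes with an entry. Over all 800 called genes the shares were 17.8% of 315 higher and 17.3% of 330 lower genes with an entry. The GATA letters stood in 18.5% of the higher and 14.8% of the lower genes called in all 4 fits, in 12.4% of all called higher and 10.9% of all called lower genes, and in 7.77% of the tested genes with an entry. Of all 32851 windows in the table, 16.8% held the RUNX letters and 11.2% the GATA letters.

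Of the genes that rose, Alox12, the platelet 12-lipoxygenase, had 25.3 and 19.1 RPKM in Runx1-deleted MEP, against 0.643 (lane 3) and 0.567 (lane 5) RPKM in wild-type MEP. Both Runx1-deleted libraries were far above both wild-type ones (log2 difference 3.84 ± 0.35, adjusted p = 8.46e-05). St3gal6, which encodes a sialyltransferase, had 20.4 and 26.5 RPKM in Runx1-deleted MEP, against 0.949 (lane 3) and 0.954 (lane 5) RPKM in wild-type MEP, and the wild-type libraries of both lanes gave nearly the same value (log2 difference 3.63 ± 0.19, adjusted p = 3.94e-06). Hpn, which encodes the transmembrane serine protease hepsin, had 36.1 and 42.6 RPKM in Runx1-deleted MEP, against 2.16 (lane 3) and 2.37 (lane 5) RPKM in wild-type MEP, again with no overlap (log2 difference 3.62 ± 0.20, adjusted p = 3.94e-06). Thbs1, which encodes the platelet alpha-granule protein thrombospondin 1, had 57.2 and 51.2 RPKM in Runx1-deleted MEP, against 1.71 (lane 3) and 2.02 (lane 5) RPKM in wild-type MEP (log2 difference 4.27 ± 0.43, adjusted p = 0.000155). It was called in the 4 MEP libraries alone and without the lane 3 library but not with group weights (adjusted p = 0.0581, with 0.000121 to 0.0581 over the alternatives).

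Clca1, of the family of calcium-activated chloride channel regulators, gave the largest fitted rise, with 61.1 and 199 RPKM in Runx1-deleted MEP, against 3.72 (lane 3) and 5.66 (lane 5) RPKM in wild-type MEP. Its 2 Runx1-deleted libraries differed from each other by more than its wild-type ones did, and both stood above both wild-type values (log2 difference 4.31 ± 0.52, adjusted p = 0.00048). Podxl, which encodes the sialomucin podocalyxin, had 25.7 and 16.7 RPKM in Runx1-deleted MEP, against 0.923 (lane 3) and 1.31 (lane 5) RPKM in wild-type MEP (log2 difference 3.36 ± 0.22, adjusted p = 1.7e-05). Clec1b, which encodes the platelet receptor CLEC-2, had 42.6 and 35.1 RPKM in Runx1-deleted MEP, against 3.92 (lane 3) and 3.99 (lane 5) RPKM in wild-type MEP (log2 difference 3.002 ± 0.26, adjusted p = 6.13e-05). Cmah had 8.67 and 13.3 RPKM in Runx1-deleted MEP, against 0.352 (lane 3) and 0.628 (lane 5) RPKM in wild-type MEP (log2 difference 2.99 ± 0.21, adjusted p = 2.03e-05). The CMAH enzyme makes the N-glycolyl form of sialic acid in mice, and Chst1, another of the rises, encodes a carbohydrate sulfotransferase (log2 difference 2.93 ± 0.24, adjusted p = 3.92e-05). Dusp10, a phosphatase of the stress kinases p38 and JNK, had 14.0 and 15.8 RPKM in Runx1-deleted MEP, against 2.04 (lane 3) and 1.36 (lane 5) RPKM in wild-type MEP (log2 difference 2.57 ± 0.20, adjusted p = 3.23e-05). Tjp1, which encodes the tight junction scaffold ZO-1, had 15.8 and 17.8 RPKM in Runx1-deleted MEP, against 1.44 (lane 3) and 3.36 (lane 5) RPKM in wild-type MEP (log2 difference 2.44 ± 0.25, adjusted p = 0.000164), and here the wild-type libraries themselves differed by over 2-fold. Cldn13, a claudin gene, and Tubb1, the platelet beta-tubulin gene, had differences of 2.46 and 2.44 but were not called with group weights (adjusted p = 0.0577 and 0.2, with 0.000522 to 0.0577 and 0.00165 to 0.2 over the alternatives). Ppbp, which encodes the platelet chemokine precursor pro-platelet basic protein, had 57.2 and 42.5 RPKM in Runx1-deleted MEP, against 5.16 (lane 3) and 8.75 (lane 5) RPKM in wild-type MEP, yet its call (adjusted p = 0.0496) was lost under 10 of 14 alternatives (adjusted p = 0.00156 to 0.544).

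**Figure D3:**
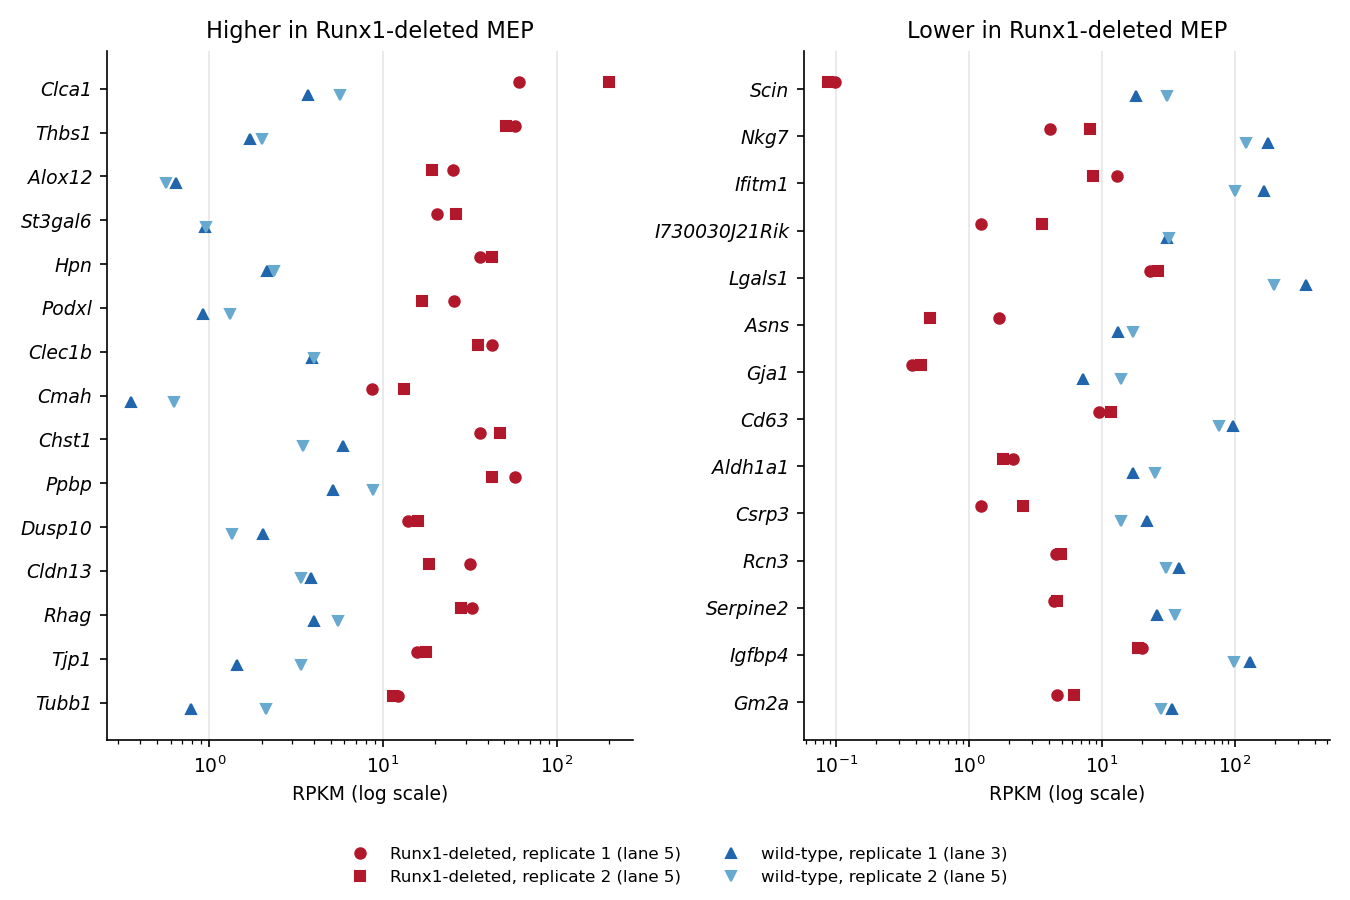
RPKM (log scale) of the 15 largest rises (left) and 14 of the largest falls (right) among called genes that averaged at least 5 RPKM and differed at least 2-fold in each of the 4 pairs of libraries; red points above are the 2 Runx1-deleted MEP libraries and blue points below them the lane 3 and lane 5 wild-type ones. The choice of genes fixes that no groups overlap; Scin lies at 0.0983 and 0.0867 RPKM in Runx1-deleted MEP and at 18.3 and 30.8 RPKM in wild-type MEP.

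Among the falls, Scin, which encodes the actin-severing protein scinderin that is made in maturing megakaryocytes, was nearly absent from Runx1-deleted MEP. It had 0.0983 and 0.0867 RPKM in Runx1-deleted MEP, against 18.3 (lane 3) and 30.8 (lane 5) RPKM in wild-type MEP, which is 11 reads in each Runx1-deleted library against 1991 and 4187 reads in the wild-type ones (log2 difference -4.50 ± 0.24, adjusted p = 3.94e-06). Nkg7, a granule membrane gene of cytotoxic lymphocytes, had 4.08 and 8.11 RPKM in Runx1-deleted MEP, against 178 (lane 3) and 122 (lane 5) RPKM in wild-type MEP (log2 difference -4.44 ± 0.31, adjusted p = 2.03e-05). The NK cell genes Ncr1 and Prf1, by contrast, together reached at most 0.313 RPKM in Runx1-deleted MEP and 0.552 RPKM in wild-type MEP. Ifitm1, an interferon-induced membrane protein gene, had 13.04 and 8.66 RPKM in Runx1-deleted MEP, against 168 (lane 3) and 101 (lane 5) RPKM in wild-type MEP (log2 difference -3.49 ± 0.27, adjusted p = 2.59e-05). In each of these 3 falls both wild-type libraries stood above both Runx1-deleted ones.

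Lgals1, which encodes the lectin galectin-1, had 23.3 and 26.4 RPKM in Runx1-deleted MEP, against 344 (lane 3) and 199 (lane 5) RPKM in wild-type MEP (log2 difference -3.35 ± 0.25, adjusted p = 2.52e-05), so even the lower wild-type library was several-fold above the Runx1-deleted ones. Cd63, which encodes a tetraspanin of platelet dense granules and lysosomes, had 9.56 and 11.8 RPKM in Runx1-deleted MEP, against 96.6 (lane 3) and 75.9 (lane 5) RPKM in wild-type MEP (log2 difference -2.90 ± 0.27, adjusted p = 9.58e-05). Igfbp4, an IGF-binding protein gene, had 20.2 and 18.9 RPKM in Runx1-deleted MEP, against 131 (lane 3) and 98.4 (lane 5) RPKM in wild-type MEP (log2 difference -2.48 ± 0.20, adjusted p = 3.23e-05). These were abundant transcripts of wild-type MEP, and their Runx1-deleted replicates lay close to each other. Aldh1a1, a retinaldehyde dehydrogenase gene whose product is abundant in stem cells, had 2.16 and 1.80 RPKM in Runx1-deleted MEP, against 17.1 (lane 3) and 25.0 (lane 5) RPKM in wild-type MEP (log2 difference -2.87 ± 0.20, adjusted p = 2.49e-05). Gja1, which encodes connexin 43, had 0.371 and 0.434 RPKM in Runx1-deleted MEP, against 7.24 (lane 3) and 14.0 (lane 5) RPKM in wild-type MEP (log2 difference -2.99 ± 0.25, adjusted p = 5.42e-05). Asns, the asparagine synthetase gene, had 1.70 and 0.515 RPKM in Runx1-deleted MEP, against 13.2 (lane 3) and 17.3 (lane 5) RPKM in wild-type MEP (log2 difference -3.00 ± 0.26, adjusted p = 6.13e-05). In these 3 genes the lane 5 wild-type library was the highest of the 4. Serpine2, Csrp3, Rcn3, Gm2a and the unnamed I730030J21Rik were also among the largest falls, with differences of -2.51, -2.71, -2.62, -2.32 and -3.36. All the falls from Scin to this point were called in all 4 fits. In all, 61 higher and 45 lower genes met the rule for these lists, while 1.14% and 1.18% of the tested genes were at least 2-fold higher or lower in each of the 4 pairs whether called or not.

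Most of the red cell genes that passed the test were higher in Runx1-deleted MEP. Of 80 tested genes on 3 erythroid lists 27 were called higher (33.8%, against 3.90% of all tested genes) and 1 lower (1.25%, against 3.98%), and their median difference was 0.52, or 0.49 against the lane 5 library alone. Without the lane 3 library 15 were called higher, without the first Runx1-deleted library 10, without the second 13, and in all 4 fits 6. The late erythroid markers Hba-a1, Hbb-b1, Alas2 and Slc4a1 summed to 89.9 and 77.8 RPKM in Runx1-deleted MEP, against 32.8 and 31.2 in wild-type MEP. Their rise was not confined to MEP, with group means of 146 RPKM in Runx1-deleted GMP and 17.8 RPKM in wild-type GMP. The part of more mature erythroid cells in the erythroid rises was not tested. On the list of membrane and skeleton genes 11 of 20 rose, by 0.75 to 2.45, and by limma none fell, also at an unadjusted p under 0.05. Rhag, which encodes the Rh-associated ammonia channel, had 32.5 and 28.2 RPKM in Runx1-deleted MEP, against 4.02 (lane 3) and 5.52 (lane 5) RPKM in wild-type MEP (log2 difference 2.45 ± 0.21, adjusted p = 6.13e-05). Epb4.2, which encodes the membrane skeleton protein 4.2, was low throughout, with 2.38 and 2.73 RPKM in Runx1-deleted MEP, against 0.396 (lane 3) and 0.495 (lane 5) RPKM in wild-type MEP (log2 difference 1.30 ± 0.15, adjusted p = 0.000401). Cd59a, which encodes an inhibitor of the complement attack, had 42.0 and 58.8 RPKM in Runx1-deleted MEP, against 17.2 (lane 3) and 12.7 (lane 5) RPKM in wild-type MEP (log2 difference 1.68 ± 0.23, adjusted p = 0.000922). The groups did not overlap in any of the 3 genes. Rhd, Spnb1 (beta-spectrin), Ank1 (ankyrin), Add2 (adducin), Ermap, Aqp1, Aqp9 and Xk were the other members called.

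The heme, iron and globin list had 8 of 27 genes higher and 1 lower, against 3.90% and 3.98% of all tested genes. Its summed level overlapped, with 3399 and 2729 RPKM in Runx1-deleted MEP and 3516 and 2893 RPKM in wild-type MEP. The sums of the membrane and skeleton list and of the erythroid regulator list were higher in both Runx1-deleted libraries. The heme-making enzymes did not move alike. Cpox, the coproporphyrinogen oxidase that acts in mitochondria late in the pathway, had 128 and 97.8 RPKM in Runx1-deleted MEP, against 17.2 (lane 3) and 25.8 (lane 5) RPKM in wild-type MEP (log2 difference 2.35 ± 0.23, adjusted p = 0.000118). The enzymes of the steps after it, Ppox and Fech, were also called, with differences of 0.86 and 0.86, but lost the call with group weights, with no filter on low values, in the 4 MEP libraries alone and without any 1 of the Runx1-deleted and lane 3 libraries (adjusted p = 0.0132 to 0.242 and 0.00694 to 0.262 over the alternatives). Of the enzymes before it, these had differences that did not pass the test, namely 0.84 for Alas2, 0.20 for Alad, 0.19 for Uros and 0.25 for Urod. Alas2 passed it with a pseudocount of 0.1, with quantile normalization, with the length trend removed and without the lane 5 wild-type library, and Urod with the length trend removed. Slc40a1, which encodes the iron exporter ferroportin, had 27.2 and 33.2 RPKM in Runx1-deleted MEP, against 6.88 (lane 3) and 10.2 (lane 5) RPKM in wild-type MEP (log2 difference 1.73 ± 0.23, adjusted p = 0.000824), and the transferrin receptor gene Tfrc and the iron importer gene Slc11a2 were called higher as well. Hmox1, which encodes the heme-degrading heme oxygenase 1, was the called fall, with 1.002 and 0.315 RPKM in Runx1-deleted MEP and 3.21 and 5.13 RPKM in wild-type MEP (log2 difference -1.65 ± 0.39, adjusted p = 0.026; 0.0138 to 0.329 over the alternatives), a call that was lost with group weights, with no filter and without the second Runx1-deleted library or either wild-type one. Globin transcripts were present at modest levels. Beta-s, an adult beta-globin gene, had 222 and 191 RPKM in Runx1-deleted MEP and 70.1 and 63.0 RPKM in wild-type MEP (log2 difference 1.62 ± 0.34, adjusted p = 0.0147). The call was lost with group weights, with no filter and without either Runx1-deleted library or the lane 3 library (adjusted p = 0.00241 to 0.303 over the alternatives). Hba-a1, an alpha-globin gene, had 64.8 and 57.4 RPKM in Runx1-deleted MEP and 27.3 and 27.0 RPKM in wild-type MEP (adjusted p = 0.0844), and Beta-s and Hbb-b1, like Hba-a1 and Hba-a2, are near-identical pairs that share reads.

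The main erythroid regulators did not pass the test. Gata1 had 127 and 119.8 RPKM in Runx1-deleted MEP and 128 and 103 RPKM in wild-type MEP (adjusted p = 0.801). Klf1 had 153 and 112 RPKM in Runx1-deleted MEP and 123 and 93.3 RPKM in wild-type MEP (adjusted p = 0.545). The groups overlapped in both genes. Tal1, a partner of GATA1 on DNA, had 68.9 and 67.5 RPKM in Runx1-deleted MEP and 52.4 and 56.8 RPKM in wild-type MEP (adjusted p = 0.317). Gfi1b, a repressor needed in both branches, had 118 and 118 RPKM in Runx1-deleted MEP and 93.1 and 79.1 RPKM in wild-type MEP (adjusted p = 0.337). Among 33 regulators and signalling genes 8 were called higher and none lower by limma, also at an unadjusted p under 0.05, with a median difference of 0.36. Of all tested genes 3.90% were called higher and 3.98% lower. Klf3, a repressor of the family of KLF1, had 24.0 and 28.4 RPKM in Runx1-deleted MEP, against 3.35 (lane 3) and 10.8 (lane 5) RPKM in wild-type MEP (log2 difference 1.92 ± 0.35, adjusted p = 0.00643), with the wild-type libraries further apart than the Runx1-deleted ones, and it was not called without the second Runx1-deleted library (adjusted p = 8.27e-05 to 0.0587 over the alternatives). Epor, the erythropoietin receptor gene, had 13.8 and 12.7 RPKM in Runx1-deleted MEP, against 8.14 (lane 3) and 8.13 (lane 5) RPKM in wild-type MEP (log2 difference 0.64 ± 0.16, adjusted p = 0.0358; 0.00756 to 0.307 over the alternatives). Its call was lost under 8 of 14 alternatives, among them group weights, the 4 MEP libraries alone and leaving out either Runx1-deleted library. Cited4, E2f2, Lyl1 and Minpp1 were called with differences of 1.99, 0.91, 0.96 and 1.25 and lost the call with group weights (adjusted p = 0.188, 0.167, 0.248 and 0.112). Without the first Runx1-deleted library Cited4, E2f2 and Lyl1 lost it too, and without the second E2f2 and Lyl1, and these 2 lost it in the 4 MEP libraries alone. The adjusted p over the alternatives was 0.00248 to 0.188 for Cited4, 0.00336 to 0.167 for E2f2, 0.00244 to 0.248 for Lyl1 and 0.000927 to 0.112 for Minpp1.

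Megakaryocyte and platelet genes moved in both directions. Of 153 tested genes on 5 lists 30 were called higher (19.6%, against 3.90%) and 15 lower (9.80%, against 3.98%). Their median difference was 0.18, or 0.02 against the lane 5 library alone. The 30 include Runx1, the deleted gene, and Slamf1, which encodes the CD150 of the gate, and the 15 include Cbfb. Without the lane 3 library the counts were 16 and 9, without the first Runx1-deleted library 12 and 8, without the second 17 and 5, and without the lane 5 wild-type library 58 and 20. In all 4 fits 7 were higher and 4 lower. Surface receptors were mostly among the higher ones, with 12 higher and 3 lower of 29 and a median of 0.51. Treml1, which encodes the alpha-granule receptor TLT-1, had 129 and 121 RPKM in Runx1-deleted MEP, against 38.9 (lane 3) and 32.6 (lane 5) RPKM in wild-type MEP (log2 difference 1.78 ± 0.21, adjusted p = 0.000353). Jam3, a junctional adhesion gene, had 5.23 and 2.73 RPKM in Runx1-deleted MEP, against 0.139 (lane 3) and 0.179 (lane 5) RPKM in wild-type MEP (log2 difference 2.06 ± 0.23, adjusted p = 0.000258). Gp5, which encodes glycoprotein V of the von Willebrand factor receptor, had 89.9 and 78.6 RPKM in Runx1-deleted MEP, against 41.6 (lane 3) and 40.9 (lane 5) RPKM in wild-type MEP (log2 difference 1.01 ± 0.18, adjusted p = 0.00561; 0.000589 to 0.146 over the alternatives, with the call lost with group weights, in the 4 MEP libraries alone and without the first Runx1-deleted library). None of the 3 genes had overlapping groups, and Gp1ba, Gp6, Itgb3, Selp, Cd226, Esam and F11r were called higher too. The called falls were Tbxa2r, the thromboxane receptor gene, Cd9 and Fcer1g.

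Granule cargo split, with 7 of 24 genes higher and 2 lower, against 3.90% and 3.98% of all tested genes. Thbs1 and Ppbp, given above, were the largest rises of this list, and Serpine2 the largest fall. Pf4, which encodes platelet factor 4 and is a reported RUNX1 target in human cells, had 220.2 and 158 RPKM in Runx1-deleted MEP, against 590.4 (lane 3) and 466 (lane 5) RPKM in wild-type MEP, lower in both Runx1-deleted libraries, but it did not pass the test (adjusted p = 0.0943; 0.0407 to 0.671 over the alternatives, passing in the 4 MEP libraries alone). Of 13 tested genes that are reported as RUNX1 targets in megakaryocytes and platelets, mostly human ones, Alox12 and Prkcq were called, both higher. At an unadjusted p under 0.05 6 of the 13 were higher and 1 lower, against 11.5% higher and 10.5% lower of all tested genes. In limma with group weights 4 were higher and none lower at that level, against 6.77% and 5.37%. The median difference of the 13 was 0.22 against the lane 3 and 0.09 against the lane 5 library. Prkcq, the protein kinase C theta gene, had 34.0 and 34.0 RPKM in Runx1-deleted MEP, against 13.1 (lane 3) and 14.2 (lane 5) RPKM in wild-type MEP (log2 difference 1.26 ± 0.17, adjusted p = 0.000962). Pstpip2, which encodes a membrane-bending adaptor, had 10.2 and 9.70 RPKM in Runx1-deleted MEP, against 1.49 (lane 3) and 2.66 (lane 5) RPKM in wild-type MEP (log2 difference 1.86 ± 0.21, adjusted p = 0.000267) on the list of platelet signalling, where 7 of 43 genes were higher and 2 lower. In Prkcq and Pstpip2 the Runx1-deleted libraries lay close together and stood above both wild-type ones.

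The megakaryocyte cytoskeleton list had 3 of 36 genes higher and 5 lower, against 3.90% and 3.98% of all tested genes, Tubb1 and Scin being its extremes. Tuba8, an alpha-tubulin gene of platelets, had 20.98 and 21.3 RPKM in Runx1-deleted MEP, against 87.7 (lane 3) and 94.1 (lane 5) RPKM in wild-type MEP (log2 difference -2.05 ± 0.15, adjusted p = 2.52e-05). Actn1, which encodes alpha-actinin 1, had 1.15 and 0.701 RPKM in Runx1-deleted MEP, against 4.02 (lane 3) and 6.62 (lane 5) RPKM in wild-type MEP (log2 difference -1.69 ± 0.26, adjusted p = 0.0023). In both genes the wild-type libraries of both lanes stood above both Runx1-deleted ones. Of 22 megakaryocyte regulators, Runx1 was the called rise, and Gata2, Hhex and Cbfb the called falls. Gata2, which maintains progenitors before GATA1 takes over, had 101 and 119.9 RPKM in Runx1-deleted MEP, against 216 (lane 3) and 227 (lane 5) RPKM in wild-type MEP (log2 difference -0.999 ± 0.21, adjusted p = 0.0147; 0.00339 to 0.297 over the alternatives, with the call lost with group weights, in the 4 MEP libraries alone and without the first Runx1-deleted library). Fli1 had 7.73 and 6.26 RPKM in Runx1-deleted MEP and 4.11 and 11.1 RPKM in wild-type MEP, and the 2 wild-type values lay on either side of both Runx1-deleted ones (adjusted p = 0.978). Nfe2, a regulator of platelet release, had 176 and 206 RPKM in Runx1-deleted MEP and 243 and 182 RPKM in wild-type MEP (adjusted p = 0.734). The groups overlapped here too.

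**Figure D4:**
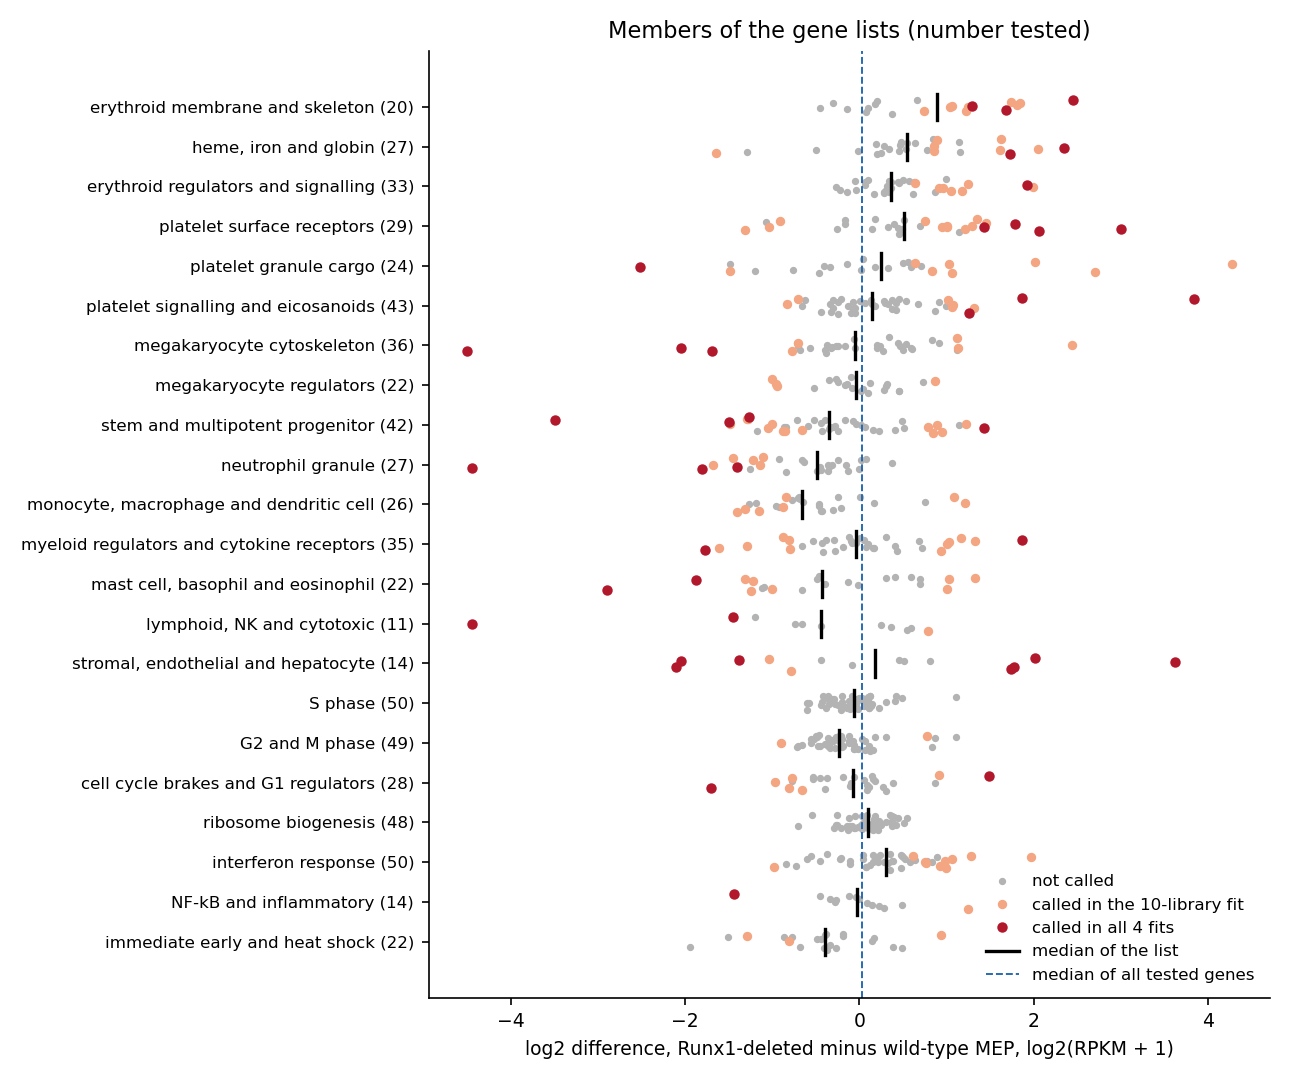
Difference between Runx1-deleted and wild-type MEP, on log2(RPKM + 1), for each tested member of 22 gene lists, with the number tested in brackets; black bars are list medians and the dashed line is the median of all 10152 tested genes (0.04). Medians lie highest in the erythroid membrane list (0.90) and lowest in the monocyte, macrophage and dendritic cell list (-0.66), and the S phase and ribosome biogenesis lists hold no called gene.

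Transcripts of granulocytes and monocytes are low in MEP, and most of those called were lower in Runx1-deleted MEP. Of 27 neutrophil granule genes 8 were lower (29.6%, against 3.98%) and none higher by limma, also at an unadjusted p under 0.05, with a median of -0.48. Without the lane 3 or the first Runx1-deleted library 5 were lower. Of 26 monocyte, macrophage and dendritic cell genes 2 were higher, Ccr2 and Slpi, and 5 lower, with a median of -0.66. The granule list summed to 822 and 851 RPKM in Runx1-deleted MEP, against 1887 and 1322 RPKM in wild-type MEP, and to group means of 12304 RPKM in Runx1-deleted GMP and 18535 RPKM in wild-type GMP. The 5 granulocyte markers given above were lower in sum in Runx1-deleted MEP. Elane and Prtn3, however, were above the lane 5 wild-type library in both Runx1-deleted libraries. Prtn3 had 15.3 and 16.6 RPKM there, against 21.6 (lane 3) and 14.1 (lane 5) RPKM in wild-type MEP. Csf1r, Ly6c2 and Irf8 of monocytes summed to 3.90 and 3.05 RPKM in Runx1-deleted MEP and to 10.3 and 7.78 RPKM in wild-type MEP. Csf1r went the other way, with 0.795 and 0.451 RPKM in Runx1-deleted MEP, against 0.177 (lane 3) and 0.398 (lane 5) RPKM in wild-type MEP. The part of such cells in these genes was not tested. The 8 granule genes were Prss57, S100a9, Ms4a3, Ear2, Anxa1, Serpinb1a, Nkg7 and Plac8, so Mpo, Elane, Ctsg and Prtn3 were not among them. Nkg7 is also on the lymphoid, NK and cytotoxic list, and Ear2 on the mast cell, basophil and eosinophil list. Anxa1, which encodes annexin A1, had 3.21 and 3.40 RPKM in Runx1-deleted MEP, against 13.0003 (lane 3) and 15.2 (lane 5) RPKM in wild-type MEP (log2 difference -1.81 ± 0.18, adjusted p = 0.00011). Serpinb1a, which encodes an inhibitor of neutrophil proteases, had 6.69 and 7.19 RPKM in Runx1-deleted MEP, against 20.2 (lane 3) and 19.9 (lane 5) RPKM in wild-type MEP (log2 difference -1.41 ± 0.16, adjusted p = 0.000277). Mpo, an abundant granule gene of GMP, had 8.73 and 6.42 RPKM in Runx1-deleted MEP and 13.03 and 11.9 RPKM in wild-type MEP (adjusted p = 0.112; 0.0301 to 0.568 over the alternatives). It passed as lower with quantile normalization (-0.73, adjusted p = 0.0483) and with the length trend removed (-0.67, adjusted p = 0.0301). Elane, which encodes neutrophil elastase, had 3.09 and 2.93 RPKM in Runx1-deleted MEP and 5.14 and 2.25 RPKM in wild-type MEP (adjusted p = 0.742). The groups overlapped in Elane, which did not pass.

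Cebpa, the regulator that directs progenitors to the granulocytic path, had 0.842 and 0.859 RPKM in Runx1-deleted MEP, against 5.54 (lane 3) and 5.11 (lane 5) RPKM in wild-type MEP (log2 difference -1.77 ± 0.18, adjusted p = 0.000132), with no overlap. Sfpi1, which encodes the myeloid regulator PU.1, had 12.4 and 13.6 RPKM in Runx1-deleted MEP and 28.0 and 19.6 RPKM in wild-type MEP (log2 difference -0.80 ± 0.21, adjusted p = 0.0385; 0.00645 to 0.373 over the alternatives, of which 8 of 14 ended the call, among them leaving out any 1 of the Runx1-deleted and lane 3 libraries). Against these, Csf3r, the receptor gene for the granulocyte growth factor G-CSF, had 7.81 and 9.53 RPKM in Runx1-deleted MEP, against 1.24 (lane 3) and 2.12 (lane 5) RPKM in wild-type MEP (log2 difference 1.86 ± 0.24, adjusted p = 0.000627). The list of 35 myeloid regulators and cytokine receptors thus held 6 higher and 6 lower genes, with a median of -0.04. Of all tested genes 3.90% were called higher and 3.98% lower. Prss34, a basophil protease gene, had 0.110 and 0.0971 RPKM in Runx1-deleted MEP, against 4.36 (lane 3) and 2.06 (lane 5) RPKM in wild-type MEP, with 5 reads in each Runx1-deleted library (log2 difference -1.88 ± 0.25, adjusted p = 0.000797). Mcpt8 and Fcer1a, also of basophils, were lower in both Runx1-deleted libraries, at most at 0.113 RPKM there and at least at 0.794 RPKM in wild-type MEP, whereas Cpa3 of mast cells overlapped, and the part of basophils was not tested. Of 22 mast cell, basophil and eosinophil genes 3 were higher and 6 lower, against the same 3.90% and 3.98%, and Cd63 was the largest fall. Alox5, which encodes 5-lipoxygenase, had 7.94 and 9.26 RPKM in Runx1-deleted MEP, against 3.32 (lane 3) and 3.79 (lane 5) RPKM in wild-type MEP, higher in both Runx1-deleted libraries (log2 difference 1.07 ± 0.22, adjusted p = 0.013; 0.00448 to 0.159 over the alternatives, with the call lost with group weights, in the 4 MEP libraries alone and without the second Runx1-deleted library).

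Of 42 genes of stem and multipotent progenitors 11 were lower (26.2%, against 3.98% of all tested genes) and 6 higher (14.3%, against 3.90%), with a median of -0.35, or -0.54 against the lane 5 library. Without the first Runx1-deleted library 6 were lower, and without the second 5. Ifitm1 was the largest of the falls. Cd27, a co-stimulatory receptor gene, had 7.05 and 5.47 RPKM in Runx1-deleted MEP, against 20.0 (lane 3) and 18.7 (lane 5) RPKM in wild-type MEP (log2 difference -1.49 ± 0.17, adjusted p = 0.00029). Hoxa9, Hoxa10, Mycn, Gata2, Angpt1, Egr1, Ndn, Gprasp2 and Cdkn1c were the other called falls, and Mllt3, Gata3, Slamf1, Cd48, Esam and Vldlr the called rises. The list that held markers of stromal, endothelial and liver cells gave 4 higher and 5 lower of 14 tested genes. Its cells' defining transcripts were near 0, with Col1a1 at 0.00570 and 0.0754 RPKM in Runx1-deleted MEP and 0.0117 and 0.00938 RPKM in wild-type MEP, and Cdh5 at or under 0.107 RPKM in all 4 libraries. Pecam1, which blood progenitors also express, had 14.2 and 14.5 RPKM in Runx1-deleted MEP and 13.04 and 18.1 RPKM in wild-type MEP. Kdr, the VEGF receptor 2 gene, had 7.28 and 6.73 RPKM in Runx1-deleted MEP, against 1.21 (lane 3) and 1.49996 (lane 5) RPKM in wild-type MEP (log2 difference 1.77 ± 0.18, adjusted p = 0.000164). Col4a2, of the basement membrane collagen IV, had 7.98 and 5.05 RPKM in Runx1-deleted MEP, against 0.629 (lane 3) and 1.05 (lane 5) RPKM in wild-type MEP (log2 difference 2.01 ± 0.24, adjusted p = 0.000406). Its divergently transcribed neighbour Col4a1 had 6.20 and 3.87 RPKM in Runx1-deleted MEP, against 0.673 (lane 3) and 0.882 (lane 5) RPKM in wild-type MEP (log2 difference 1.74 ± 0.23, adjusted p = 0.000824). In all 3 genes both Runx1-deleted libraries stood above both wild-type ones. Vim, the intermediate filament gene vimentin, had 55.8 and 62.7 RPKM in Runx1-deleted MEP, against 295 (lane 3) and 224 (lane 5) RPKM in wild-type MEP (log2 difference -2.10 ± 0.24, adjusted p = 0.000353). Pdgfrb, a PDGF receptor gene, had 0.599 and 1.03 RPKM in Runx1-deleted MEP, against 5.71 (lane 3) and 7.24 (lane 5) RPKM in wild-type MEP (log2 difference -2.04 ± 0.21, adjusted p = 0.00015). Col1a2, of collagen I, had 0.115 and 0.161 RPKM in Runx1-deleted MEP, against 1.99 (lane 3) and 1.94 (lane 5) RPKM in wild-type MEP (log2 difference -1.38 ± 0.14, adjusted p = 0.000164). In Vim, Pdgfrb and Col1a2 both Runx1-deleted libraries stood below both wild-type ones.

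Of 50 S phase genes none was called by limma (1 higher and 2 lower at an unadjusted p under 0.05), and the median was -0.07. Of all tested genes 7.88% were called in either direction. Of 49 genes of the G2 and M phases Cdc25b was higher and Cenpa lower, and the median was 0.01 against the lane 3 and -0.40 against the lane 5 library. Of 48 ribosome biogenesis genes none was called by limma (1 higher and 2 lower at an unadjusted p under 0.05), with a median of 0.10. The S phase genes summed to 3114 and 2030.4 RPKM in Runx1-deleted MEP and 2654 and 2853 RPKM in wild-type MEP, so the 2 Runx1-deleted libraries bracketed both wild-type ones. Ccnd1, which encodes cyclin D1 of the G1 phase, had 1.14 and 0.896 RPKM in Runx1-deleted MEP, against 4.60 (lane 3) and 6.67 (lane 5) RPKM in wild-type MEP (log2 difference -1.70 ± 0.19, adjusted p = 0.000291), and it was the largest fall among 28 genes of cell cycle brakes and G1, of which 2 were higher and 5 lower. Of 50 interferon response genes 10 were called higher (20.0%, against 3.90%) and 1 lower (against 3.98%). Their median was 0.31. Oas2, which encodes an antiviral oligoadenylate synthetase, had 7.77 and 14.5 RPKM in Runx1-deleted MEP and 1.74 and 2.26 RPKM in wild-type MEP (log2 difference 1.97 ± 0.31, adjusted p = 0.00249; 0.00138 to 0.0625 over the alternatives). Oas3, of the same family, had 10.9 and 12.2 RPKM in Runx1-deleted MEP and 3.86 and 4.49 RPKM in wild-type MEP (log2 difference 1.28 ± 0.20, adjusted p = 0.00286; 0.00213 to 0.0821 over the alternatives). In limma with group weights no gene of the list was called higher. At an unadjusted p under 0.05 that fit gave 15 higher and 2 lower, against 6.77% higher and 5.37% lower of all tested genes. In the 4 MEP libraries alone 2 were, without the first Runx1-deleted library 6, without the second 4 and without the lane 5 wild-type library 20. The summed level of that list went the other way, with 2383 and 2269 RPKM in Runx1-deleted MEP, against 3210 and 2415 RPKM in wild-type MEP. Xist, which is expressed from the inactive X of female cells, had 54.6 and 109.5 RPKM in Runx1-deleted MEP and 2.90 and 31.1 RPKM in wild-type MEP. Ddx3y of the Y chromosome had 1.30 and 2.12 RPKM in Runx1-deleted MEP and 2.38 and 7.80 RPKM in wild-type MEP, so every library held transcripts of both kinds, in unequal amounts, and their part in other results was not tested.

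The difference made by the deletion in MEP was also set against that in GMP, in 1 model with the difference of both effects as its contrast. Both Runx1-deleted GMP libraries were run in lane 5 and the wild-type ones in lanes 3 and 2. In GMP, and so in the difference of effects, the deletion and the lane cannot be told apart. Of 10152 genes 90 (0.887%) differed, 36 with the higher effect in MEP (0.355%) and 54 with the lower one (0.532%), and 74 of them were among the 800 called in MEP (9.25% of these). Leaving out 1 MEP or GMP library at a time moved the 90 to between 19, without the second wild-type GMP library, and 366, without the lane 5 wild-type MEP library. Hpn, for example, had 1.88 and 2.07 RPKM in Runx1-deleted GMP, against 1.54 and 0.865 RPKM in wild-type GMP, an effect of 0.45 ± 0.20 there and of 3.62 ± 0.20 in MEP (difference of effects 3.17 ± 0.28, adjusted p = 0.000617). St3gal6, Cmah and Dusp10 also rose in MEP with GMP effects of 0.41 ± 0.19, 0.20 ± 0.21 and 0.01 ± 0.20. Their differences of effects were 3.22 ± 0.27, adjusted p = 0.000581 for St3gal6, 2.79 ± 0.29, adjusted p = 0.0015 for Cmah and 2.56 ± 0.29, adjusted p = 0.00214 for Dusp10. Cpox had 8.92 and 11.6 RPKM in Runx1-deleted GMP, against 11.7 and 13.8 RPKM in wild-type GMP (difference of effects 2.65 ± 0.32, adjusted p = 0.00359). Aldh1a1, which fell in MEP, had a GMP effect of -0.23 ± 0.20 (difference of effects -2.63 ± 0.29, adjusted p = 0.00183). Alox5 took opposite directions, with 1.97 and 2.22 RPKM in Runx1-deleted GMP, against 17.4 and 12.05 RPKM in wild-type GMP, an effect of -2.32 ± 0.22 (difference of effects 3.40 ± 0.31, adjusted p = 0.00065). Gp5 rose in both, and more in GMP, with 10.3 and 12.5 RPKM in Runx1-deleted GMP, against 0.906 and 0.723 RPKM in wild-type GMP (difference of effects -1.76 ± 0.25, adjusted p = 0.0105). Scin, which fell by 4.50 in MEP, had a GMP effect of -3.90 ± 0.24, and its difference of effects did not pass the test (-0.60 ± 0.34, adjusted p = 0.807).

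**Figure D5:**
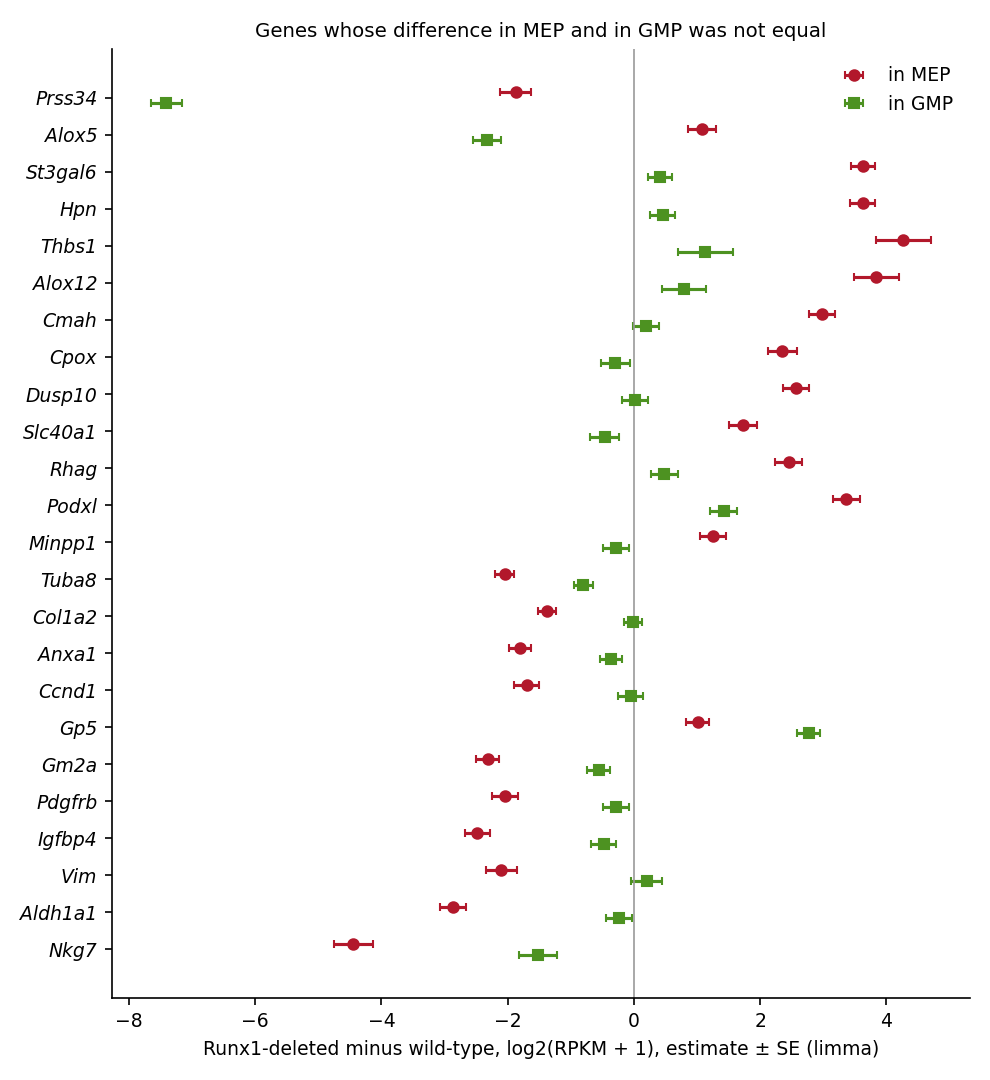
Runx1-deleted minus wild-type effect in MEP (red circles, above) and in GMP (green squares, below) for the described genes whose 2 effects differed at an adjusted p under 0.05, on log2(RPKM + 1); bars are the SE of the limma fit. Alox5 lies at 1.07 in MEP and -2.32 in GMP, and Prss34 at -1.88 and -7.41.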

How the data were processed

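RNA-seq was read from 1 deposited table of 10 mouse libraries, with 1 RPKM column per library made by the authors, per the file headers. The genome build was mm9, as the submitters' processing notes list it. Aligner and counter: not given in the sources used here. The lane comes from the column names. RNA was total RNA, and the library kit was 1 of 2 (TruSeq RNA V2 LT or NEBNext Ultra), per the labels' protocols, with the kit of each library not given. The deposited p-values of the authors' table come from Baggerley's test between the 2 MEP groups, per the file headers. No column of per-sample values was left unused (0).

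Read depth was recovered from RPKM values, which were whole multiples of 1 read within 0.01 for 19335 genes, 3904 being at 0 in all libraries and 1 gene failing. It was used for depth and gene length alone. RPKM was tested as log2(RPKM + 1) with limma 3.58.1 in R 4.3.3 (Python 3.11.15 for tables), over the 10 libraries in 5 groups with 5 residual degrees of freedom, a variance trend and Benjamini-Hochberg adjustment over 10152 genes. The pseudocount understates the change of low genes. Whether counting used strand is not given, so overlapping genes cannot be told apart.

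Alternatives were a pseudocount of 0.1, testing every gene, testing those averaging 5 RPKM or more, no variance trend, group weights, quantile normalization, removal of the length trend, a replicate block, the 4 MEP libraries alone, and leaving out each library. The genes named were the 15 largest rises and falls among called genes with a mean of at least 5 RPKM and a 2-fold difference in each of the 4 pairs, 5 markers (Thbs1, Alox12, Rhag, Nkg7 and Hpn), up to 4 called members of each list per direction, regulators, sort markers and RUNX genes, of which a selection is printed. Some genes that meet this rule are not reported here. Uncalled heme enzymes, Mpo, Elane, Pf4, Hba-a1 and Xist, and the called Ppox, Fech, Beta-s, Gp5, Alox5, Epor and Lyl1, were added after their values were seen. The comparison, members and lists were chosen with earlier results of these data known. Fits were tested on simulated data.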

Additional observations from a re-analysis of the deposited data

Results flagged for a closer look

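For 24 of the described genes the effect of the deletion in MEP differed from that in GMP, by the test of the difference itself at an adjusted p under 0.05 (limma). Of all tested genes 90 (0.887%) passed it. Both Runx1-deleted GMP libraries were run in lane 5 and neither wild-type one was, so the GMP effect cannot be told apart from the lane. Values are the MEP effect minus the GMP effect, on log2(RPKM + 1).

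Among the rises in MEP, the difference was 3.14 for Thbs1, 3.05 for Alox12, 3.22 for St3gal6, 3.17 for Hpn, 1.94 for Podxl, 2.79 for Cmah, 2.56 for Dusp10, 1.97 for Rhag, 2.65 for Cpox, 2.19 for Slc40a1 and 1.54 for Minpp1. Among the falls in MEP, it was -2.92 for Nkg7, -2.63 for Aldh1a1, -2.00 for Igfbp4, -1.76 for Gm2a, -1.25 for Tuba8, -1.44 for Anxa1, -2.31 for Vim, -1.76 for Pdgfrb, -1.37 for Col1a2 and -1.65 for Ccnd1. In these 21 genes the effect was further from 0 in MEP than in GMP.

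The order was the other way in 3 genes. Prss34, a basophil protease gene, had an effect of -1.88 in MEP and -7.41 in GMP, a difference of 5.53. Its wild-type level was 4.36 and 2.06 RPKM in MEP and 231 RPKM on average in GMP. That low level bounds the fall in MEP on this scale, and with a pseudocount of 0.1 the MEP effect was -3.93. Alox5 had effects of 1.07 in MEP and -2.32 in GMP, a difference of 3.40. Gp5 had effects of 1.01 in MEP and 2.77 in GMP, a difference of -1.76.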

How the results depend on the processing

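None of the 73 described genes that were called changed direction under any of the 14 alternatives in which it was tested. All 73 were called with the gene-length trend removed or with quantile normalization, 50 with group weights, 61 in the 4 MEP libraries alone and 65 without the lane 3 wild-type library. The 800 calls became 340 among genes averaging at least 5 RPKM, 197 with group weights, 301 in the 4 MEP libraries alone and 1294 with the length trend removed. Leaving out 1 library gave 339 to 3391, the highest without the lane 5 wild-type library, where 69.9% of the calls were higher, against 49.5% of the 800. Without the lane 3 library that share was 40.8%. With the length trend removed and the lane 3 library left out, an alternative chosen after seeing the data, 730 genes were called. The 90 genes whose MEP and GMP effects differed became 216 with no filter, 50 at a mean of 5 RPKM, 38 with group weights, 243 with the length trend removed, 161 with that and without the lane 3 library, and 19 to 366 with 1 library left out.

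The 27 higher erythroid genes became 11 with no filter, 6 with group weights, 15 in the 4 MEP libraries alone and 10 to 38 with 1 library left out. The 30 higher megakaryocyte and platelet genes became 19, 7, 14 and 12 to 58 under the same settings, and the 15 lower ones 7, 5, 6 and 5 to 20, and 23 with the length trend removed. The 8 lower neutrophil granule genes became 5 with no filter, 5 at a mean of 5 RPKM, 3 with group weights, 5 in the 4 MEP libraries alone and 5 to 12 with 1 library left out. The 10 higher interferon response genes became 6 at a mean of 5 RPKM, 0 with group weights in limma (15 at an unadjusted p under 0.05), 2 in the 4 MEP libraries alone and 4 to 20 with 1 library left out. The 11 lower stem and progenitor genes became 6, 4, 4 and 5 to 12. The cause of these changes was not tested.

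Of described genes that were not called, Mpo passed with quantile normalization and the length trend removed, Itga2b with quantile normalization, Hba-a1 with the length trend removed and in the 4 MEP libraries alone, and Elane, Fli1, Itga2b, Kit and Xist without the lane 5 wild-type library. Other uncalled genes, and some of these, changed sign. With quantile normalization the difference was -0.065 for Runx2, -0.11 for Fli1 and 0.085 for Nfe2. With the length trend removed it was -0.26 for Runx2, -0.094 for Runx3, -0.050 for Fli1 and 0.14 for Elane. With the lane 3 library left out as well it was -0.24 for Runx2, -0.047 for Runx3, -0.54 for Fli1, 0.37 for Elane and 0.12 for Nfe2. Leaving out 1 library at a time gave -0.30 to 0.41 for Runx2, -0.11 to 0.21 for Runx3, -0.054 to 0.26 for Gata1, -0.60 to 0.64 for Fli1, -0.35 to 0.068 for Nfe2, -0.069 to 0.47 for Alad and -0.62 to 0.30 for Elane.

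The replicate numbers are not known to pair the libraries. The deviations of same-numbered Runx1-deleted and wild-type MEP libraries from their group means correlated at 0.31 across genes, which rests on 1 pair of deviations. Those of Runx1-deleted MEP correlated at 0.79 with a further Runx1-deleted group, labelled XMP, and at -0.35 with Runx1-deleted GMP. By the library numbers in the column names, the Runx1-deleted GMP replicates run in the reverse order of the other groups. The block goes by replicate number in every group, so it cannot decide on a pairing by library number. With a replicate block 780 genes were called, 741 of them among the 800, Epor and Ppbp being the described genes that lost their call, and 79 genes differed between MEP and GMP.

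With 2 libraries a group the spread rests on few values, the lane 3 library and wild-type replicate 1 are the same library, and 1 read in a gene of 1 kb is worth 0.0220 to 0.0275 RPKM in the MEP libraries. Values near that level are counts of a few reads. The pseudocount of 1 RPKM makes the differences of low genes smaller than their ratios.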

Other observations

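Some further lists are given by their called genes in Runx1-deleted against wild-type MEP, where 7.88% of all tested genes were called in either direction. Of 14 tested genes of the NF-kB and inflammatory response Bcl3 was higher and Il1b lower, with a median difference of -0.02. Of 22 immediate early and heat shock genes Klf2 was higher and Egr1 and Btg2 lower, with a median of -0.39, or -0.31 against the lane 5 wild-type library alone. Of 11 lymphoid, NK and cytotoxic genes Gata3 was higher and Nkg7 and Cd96 lower, with a median of -0.45. Of 7 tested genes of the sort markers Slamf1 was higher, with a median of 0.41 over the 7, or 0.07 against the lane 5 library alone.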
